A study of Schizosaccharomyces pombe with 8 samples.

Results

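The 5′ untranslated regions (5′ UTRs) of Schizosaccharomyces pombe genes are the stretches between the start of a transcript and its start codon. Small RNA assigned to them was measured in 8 libraries, 1 per strain. The members are the rows of the deposited table whose class is 5′ UTR, without 15 rows that overlap a tRNA, rRNA, snoRNA or snRNA gene on either strand and without 6 rows of ade6, nmt1, cox4 and genes beside them. This left 4807 rows of 4632 genes, out of 17962 rows in the table. No measured value enters this rule, but it was set with earlier results of these data known. Of the members, 342 are separate pieces of the 5′ UTRs of 167 genes, so they share a transcript, and the median length was 166 nt, with a range of 1 to 4397 nt.

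The mutant strains carry a Paf1 deletion, Paf1-Q264Stop (spelled Paf-1Q264Stop in the labels), Paf1-G104R, a Leo1 deletion, Leo1-W157Stop, Cdc73-G313R or Rot1-Q472Stop, and the last strain is wild type. Per the labels all of them, the wild type included, also carry ade6-hp+, a construct that makes an RNA hairpin against the adenine gene ade6. Cells grew at 30 °C in rich YES medium to an OD600 of 0.5, and RNA of 18 to 28 nt was sequenced. Since each strain has 1 library there is no replicate error, no replicate test could be run, and p-values are not given.

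The Paf1 complex travels with RNA polymerase II and helps elongation, transcript 3′ end processing and the release of RNA from chromatin. In fission yeast, Dicer cuts double-stranded RNA into small interfering RNA, Argonaute carries it, and the RNA-dependent RNA polymerase makes more of it at pericentromeric and telomeric repeats. In cells with an impaired Paf1 complex, small RNA can also direct heterochromatin to protein-coding genes. A 5′ UTR can pair with RNA from the other strand where a divergent gene or an antisense RNA overlaps it.

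The 5′ UTR whose small RNA fell most in a mutant relative to wild type was that of mae1, the malate permease gene, at chromosome 1, 4912237 to 4912296, plus strand. Its first 30 bases are shown with 2 telomeric places that share the first 20 of them, since these letters bear on where its reads can be assigned. Capitals mark the 20 shared bases, and each 30-base telomeric stretch differs from the mae1 stretch at 1 base. The sequences were read from the RefSeq assembly ASM294v3, whose 3 chromosomes end at the same positions as the table's largest coordinates.
mae1 5′ UTR, chr1:4912237-4912266, plus strand: TTCATTTTCTCTCTTGGCCActattttttt
telomeric place, chr1:6368-6397, minus strand: TTCATTTTCTCTCTTGGCCAttattttttt
telomeric place, chr2:4526152-4526181, plus strand: TTCATTTTCTCTCTTGGCCAttattttttt
The place on chromosome 1 lies in a telomeric repeat row of the table (6360 to 6755), and the place on chromosome 2 lies in no row.

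Levels are the deposited values, log2(n + 8), where n is a read number scaled by element length to a common total per library, so the floor is 3 and levels can be compared between genes. The reads behind each level were recovered from the value of 1 read, and came out whole within 0.05 for 89.8% to 95.8% of the members in each library. All rows held 1192700 reads in the library labelled Paf1 deletion, 3139700 in Paf1-G104R, 3156332 in Paf1-Q264Stop, 1868615 in Rot1-Q472Stop, 917882 in Cdc73-G313R, 2351441 in Leo1 deletion, 1386959 in Leo1-W157Stop and 6422482 in wild type. A single read in a 100-nt element therefore gave a level of 4.12 in Paf1 deletion, 3.93 in Cdc73-G313R and 3.32 in wild type. The rRNA rows took 60% of the linear total in Cdc73-G313R, 8.54% to 28.7% in the other 6 mutants and 4.28% in wild type. Over all rows past the level filter used below, the median difference from wild type was 0.01 in Paf1 deletion, -0.11 in Paf1-G104R, -0.31 in Paf1-Q264Stop, -0.39 in Rot1-Q472Stop, -2.00 in Cdc73-G313R, -0.70 in Leo1 deletion and -0.48 in Leo1-W157Stop, and the differences of single 5′ UTRs stand against these shifts. The strand of counting was checked at the rows left out. The 5 left-out 5′ UTRs opposite a structural RNA gene held 151800, 7756, 4468, 1 and 0 wild-type reads, a median of 4468, against a median of 13.8 for the 10 on its strand. The 3 with many reads lie opposite a tRNA or rRNA gene, and those with 1 and 0, at tif308 and tim17, opposite an snRNA and a snoRNA gene. Over rows of the table overlapping a tRNA by at least 40 nt, the median was 7777 reads for 7 opposite rows, against 50.8 for 6 on the same strand, and for snoRNAs 416 for 15 opposite rows, against 17.6 for 36 on the same strand. A 5′ UTR level is therefore read here as antisense to the gene, which these few rows do not settle for each member.

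Small RNA at the transcript rows of the subunit genes did not all follow the labels. These read numbers are not scaled for depth. The transcript row of leo1 held 215 reads in the library labelled Leo1 deletion and 594 in Leo1-W157Stop, against 231 in wild type. Its levels were 5.35, 7.34 and 4.61 in that order. The transcript of cdc73 held 200 reads in Rot1-Q472Stop and 2 to 14 in the other 6 mutants, against 18.5 in wild type. The transcript of prf1, the fission yeast counterpart of Rtf1, held 874 reads in Paf1-G104R and 1 to 5 in the other 6 mutants, against 2 in wild type. That of paf1 held 6 reads in Paf1 deletion and 203 in Paf1-Q264Stop, against 27 in wild type. By level it stood at 3.52 in Paf1 deletion, 5.53 in Paf1-Q264Stop and 3.50 in wild type. Read as antisense to the gene, these numbers do not measure its own RNA and do not settle which strain a library holds. Strain names below are the labels of the libraries.

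The 5′ UTRs carried little small RNA in every library. In libraries from whole cultures, fewer cells with a small RNA and less of it per cell cannot be told apart. They held 0.718% of all recovered reads in Paf1 deletion, 0.610% in Paf1-G104R, 0.567% in Paf1-Q264Stop, 0.698% in Rot1-Q472Stop, 0.645% in Cdc73-G313R, 0.801% in Leo1 deletion and 0.612% in Leo1-W157Stop, against 0.457% in wild type. By reads each mutant share was above that of wild type, but on the length-scaled linear scale of the levels this did not hold. There the members took 2.74% of the total in Paf1 deletion, 2.06% in Leo1 deletion and 1.71% in Rot1-Q472Stop, and 0.934% to 1.53% in the other 4 mutants, against 1.66% in wild type. Between 58.4% and 83% of the members held no read in a mutant library, against 51.9% in wild type, which is the deepest library. Of all members, 1148 held no read in any library, 398 held a read in all 8, and 321 reached level 5 in at least 1.

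A level of 5 or more, which is 2 above the floor, was reached by 170 members in Paf1 deletion, which is 3.54% of them (exact binomial 95% interval 3.03 to 4.10%). The number was 89 in Paf1-G104R (1.85%), 69 in Paf1-Q264Stop (1.44%), 101 in Rot1-Q472Stop (2.10%), 23 in Cdc73-G313R (0.478%), 56 in Leo1 deletion (1.16%) and 78 in Leo1-W157Stop (1.62%), against 74 in wild type (1.54%, interval 1.21 to 1.93%). The interval for Cdc73-G313R was 0.304 to 0.717%. These intervals hold no error between libraries, so strains are not compared by them. The counts also move with depth and scaling. A single read in 100 nt gave a level of 4.12 in Paf1 deletion and 3.32 in wild type, and Cdc73-G313R had a median shift of -2.00. In wild type 24.6% of 3′ UTRs, 7.22% of protein-coding transcripts and 3.85% of introns reached this level. The 5′ UTRs were the class with the smallest share of these 4 in every library.

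**Figure D1:**
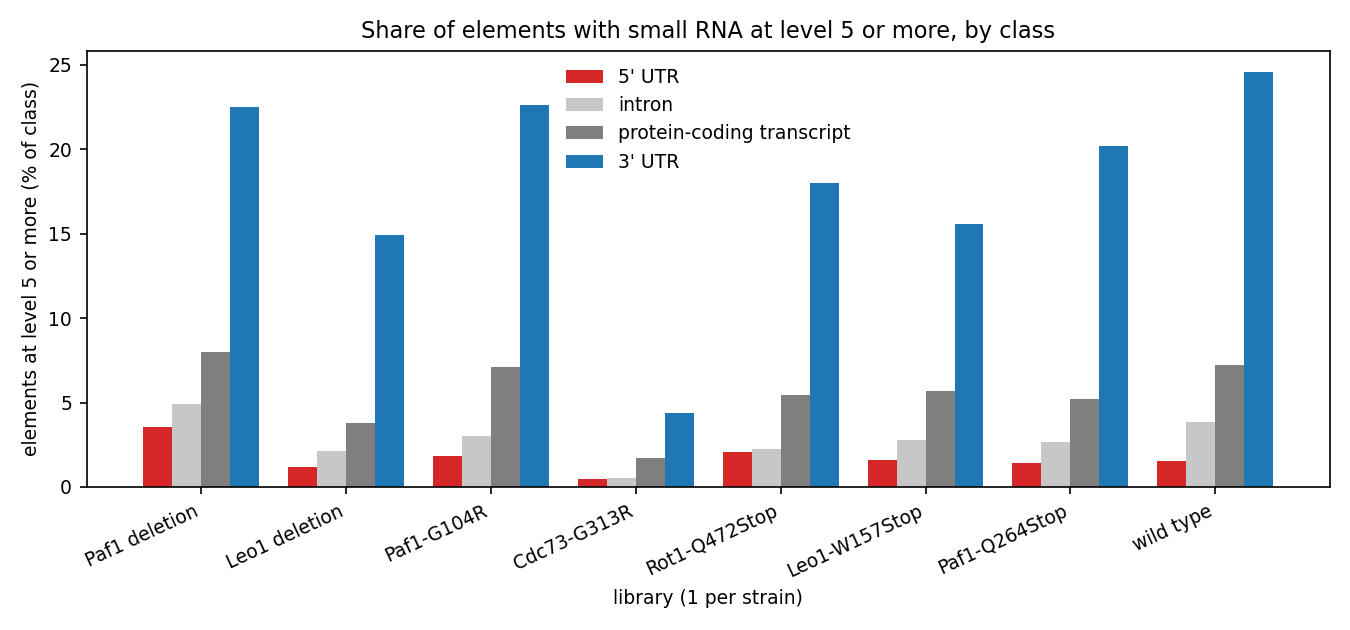
Percentage of the elements of each class at level 5 or more (vertical axis) in each library (horizontal axis), with bars for 5′ UTRs, introns, protein-coding transcripts and 3′ UTRs. The 5′ UTR bar is the lowest of the 4 in each library, at 0.478% to 3.54% in the mutants and 1.54% in wild type, where the 3′ UTR bar stands at 24.6%.

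Elements were also compared within a gene. Each 5′ UTR was compared with the transcript row of its own gene in the same library, which contains it, where either reached level 5. The median difference was -1.45 in Paf1 deletion over 468 pairs, -2.59 in Cdc73-G313R over 85 pairs, -2.01 to -2.11 in the other 5 mutants and -2.11 in wild type over 363 pairs. The 5′ UTR stood above its transcript by at least 1 in 19.4% of the pairs in Paf1 deletion and in 10.5% of the pairs in wild type. Among members of at least 50 nt, with 10 reads in either element, these shares were 9.95% in Paf1 deletion and 10.4% in wild type. Against the 3′ UTR of the same gene the median difference was -2.28 in Paf1 deletion, -2.48 to -2.59 in the other 6 mutants and -2.65 in wild type. In wild type 41 of 1166 pairs had the 5′ UTR higher by at least 1, and 1086 had it lower. Only 74 members reached level 5 in wild type. Most pairs there thus entered through the other element, where it is high, so the filter largely sets the sign of these medians. Levels are per length, but a single read gives a short element a high level, so the size of the elements still enters where reads are few.

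What lay on the opposite strand divided the members more than their length or base composition did in wild type. Of the 4807 members, 1379 (28.7%) overlapped a row for a protein-coding transcript, a non-coding RNA or a repeat on the other strand. Among these 6.38% reached level 5 in Paf1 deletion, 4.86% in Paf1-G104R, 3.26% in Paf1-Q264Stop, 4.21% in Rot1-Q472Stop, 1.23% in Cdc73-G313R, 2.03% in Leo1 deletion, 3.84% in Leo1-W157Stop and 4.21% in wild type. Among the 3428 members with no such row the shares were 2.39% in Paf1 deletion, 0.642% in Paf1-G104R, 0.700% in Paf1-Q264Stop, 1.25% in Rot1-Q472Stop, 0.175% in Cdc73-G313R, 0.817% in Leo1 deletion, 0.729% in Leo1-W157Stop and 0.467% in wild type. In each of the 8 libraries the 95% intervals of the 2 groups did not overlap. Under the antisense reading, reads counted in a member with an opposite row have the strand of that opposite transcript. Whether they are pieces of that transcript itself was not tested. Intervals of shares, here, above and below, treat the members as independent draws, which pieces of one 5′ UTR are not. They hold neither the counting error of reads nor any error between libraries. Intervals of ratios below cover the counting error of reads only. The reads carry no molecular identifiers and may be copies of one molecule.

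Members with an opposite row were longer, with a median of 215 nt against 151 nt without one. Length alone moved the share less: in wild type 1.25% of the shortest 1602 members, 1.44% of the middle 1602 and 1.93% of the longest 1603 reached level 5. Base composition gave 1.50%, 1.56% and 1.56% in wild type for members of low, middle and high G+C content. In Paf1 deletion the shortest members had the largest share, 5.56%, against 2.93% of the longest, and 1 read alone lifts a short member far there.

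The kind of opposite row was compared next. In wild type 4.60% of the 652 members opposite protein-coding transcripts only reached level 5 (interval 3.13 to 6.50%), and 3.69% of the 678 opposite non-coding RNAs or repeats only (interval 2.40 to 5.40%), so these intervals overlapped. In Leo1 deletion the shares were 2.76% opposite coding transcripts (1.64 to 4.33%) and 1.33% opposite non-coding rows (0.609 to 2.5%), and the second interval overlapped that of members with no opposite row (0.543 to 1.18%). The RefSeq annotation, which lists more non-coding RNAs than the table, did not divide the remaining members in this way. Of the 3428 members with no opposite row in the table, 1962 lie opposite a RefSeq non-coding RNA, and 0.459% of these reached level 5 in wild type (interval 0.210 to 0.869%). Of the 1449 with no RefSeq gene opposite, 0.483% did (interval 0.194 to 0.993%).

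**Figure D2:**
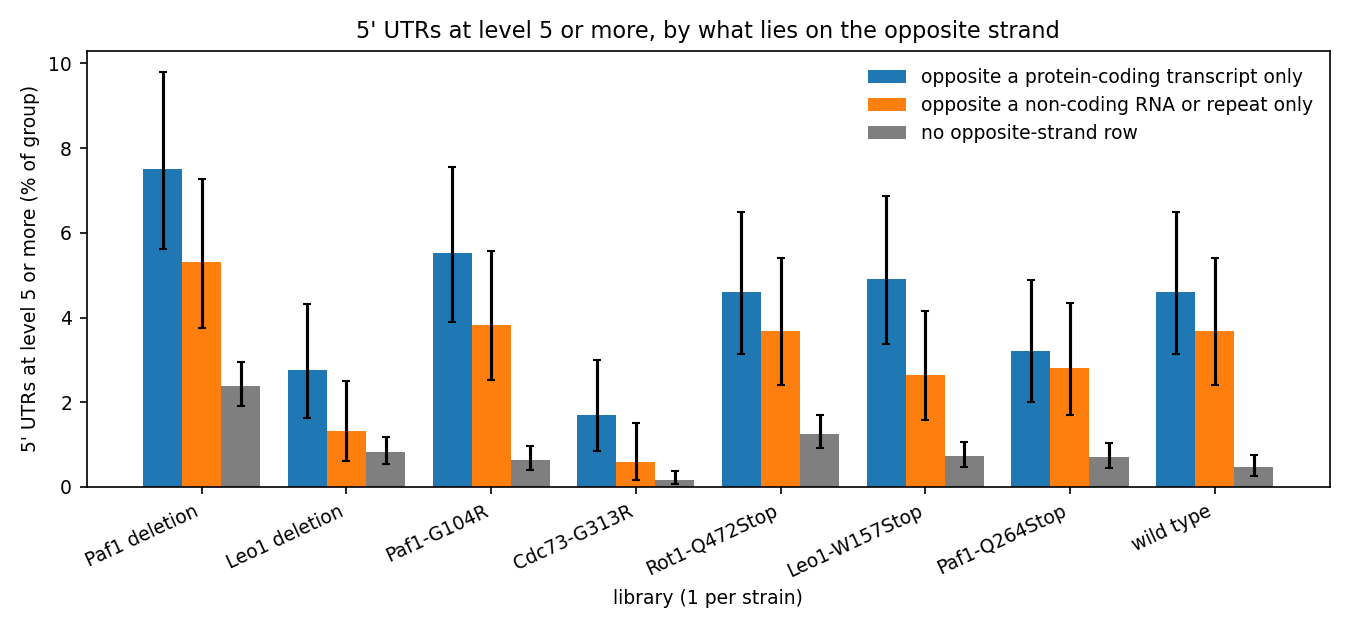
Percentage of 5′ UTRs at level 5 or more (vertical axis) in each library (horizontal axis) for members opposite a protein-coding transcript only (652), opposite a non-coding RNA or repeat only (678) and with no opposite row (3428). Error bars are exact binomial 95% intervals that treat members as independent draws, and the bar for no opposite row is the lowest in each library.

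Among the 10 members of highest mean level, the pair that varied least on the deposited scale lay opposite ribosomal protein genes. SPBC19G7.04 (chromosome 2, 2349142 to 2349592), whose 5′ UTR overlaps the transcript of the ribosomal protein gene rps3002 by 312 nt, stood at 7.67 in Paf1 deletion, 8.14 in Paf1-G104R, 7.65 in Paf1-Q264Stop, 8.19 in Rot1-Q472Stop, 8.38 in Cdc73-G313R, 7.52 in Leo1 deletion, 8.09 in Leo1-W157Stop and 8.16 in wild type. The 5′ UTR of rmi1 (chromosome 1, 3337228 to 3338202), a partner of the RecQ helicase and topoisomerase 3, overlaps the ribosomal protein gene rpl2002 by 525 nt and the DNA glycosylase gene myh1 by 487 nt. It stood between 6.96 and 8.0 in the mutants and at 7.58 in wild type. The SD over the 8 libraries was 0.31 for SPBC19G7.04 and 0.37 for rmi1, against 0.67 to 2.11 for the other 8 members of the 10. This depended on the scaling of Cdc73-G313R, where SPBC19G7.04 differed from wild type by 0.21 and rmi1 by 0.38 as deposited. They differed by 2.21 and 2.38 after the median difference over all rows past the level filter was subtracted, and by 1.70 and 1.66 after quantile normalization. With these medians subtracted in each mutant both SDs were 0.83, and ptf1 had the lowest of the 10, 0.55. In all, 7 members lie opposite a ribosomal protein transcript, and these 2 are the ones at level 5 or more in each library. Whether their reads are pieces of the opposite transcripts was not tested. Of the 20-nt stretches of rmi1, 105 occur elsewhere in the genome, and 4 of those of SPBC19G7.04 do.

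The 5′ UTR of adh1, the main alcohol dehydrogenase of fermentation, had the highest mean level, 8.50. It is 1932 nt long (chromosome 3, 1589427 to 1591358) and overlaps the transcript of SPCC13B11.02c by 1363 nt, which reached 9.53 in wild type. It held 233 reads in Paf1 deletion, 2829 in Paf1-G104R, 2643 in Paf1-Q264Stop, 2217 in Rot1-Q472Stop, 186 in Cdc73-G313R, 7993 in Leo1 deletion, 1622 in Leo1-W157Stop and 2358 in wild type. Its level was 10.78 in Leo1 deletion, 6.93 in Paf1 deletion and 7.96 in wild type. The length-scaled ratio to wild type was 7.26 in Leo1 deletion (interval 6.93 to 7.60) and 0.472 in Paf1 deletion (0.411 to 0.540). The 2 deletions thus differed from wild type in opposite directions at adh1, and the 5 point alleles ranged from 6.29 in Cdc73-G313R to 9.25 in Leo1-W157Stop.

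Small RNA at the 5′ UTR of sgo2, a shugoshin of centromeres, was highest in Paf1 deletion, at 10.20 with 128 reads. Its other mutant levels ran from 4.87 in Cdc73-G313R to 8.76 in Leo1-W157Stop, against 7.55 in wild type. The whole 103-nt element lies opposite the non-coding RNA SPNCRNA.930.

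A pair of members peaked in the Cdc73-G313R library. That of rrb1, a ribosome assembly gene, held 482 reads in Paf1 deletion, 226 in Paf1-G104R, 258 in Paf1-Q264Stop, 362 in Rot1-Q472Stop, 1554 in Cdc73-G313R, 148 in Leo1 deletion and 105 in Leo1-W157Stop, against 254 in wild type. Its level was 10.74 in Cdc73-G313R, 9.44 in Paf1 deletion and 6.38 in wild type. That of arc5, a subunit of the Arp2/3 actin complex, stood at 10.24 in Cdc73-G313R with 785 reads, at 8.11 in Paf1 deletion with 136, and at 5.35 in wild type with 79. Both were above wild type in all 7 mutants. Both were highest in the 2 libraries with the largest rRNA share, 60% in Cdc73-G313R and 28.7% in Paf1 deletion, and the part of rRNA in these levels was not tested.

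Lying wholly opposite the gor1 transcript, the 5′ UTR of SPACUNK4.20 (105 nt) was above wild type in all 7 mutants, at 7.14 to 8.48 against 6.20. It held 31 to 59 reads in the mutants and 35 in wild type, so the higher levels come from similar read numbers in shallower libraries. The ratio intervals excluded 1 in each mutant, the nearest being Paf1-Q264Stop with 2.02 (1.27 to 3.23). The remaining members of the 10 are ptf1 (5.27 to 7.97 in the mutants, 7.49 in wild type), SPAC11D3.03c (5.03 to 7.50, against 6.67) and spp27, described below.

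**Figure D3:**
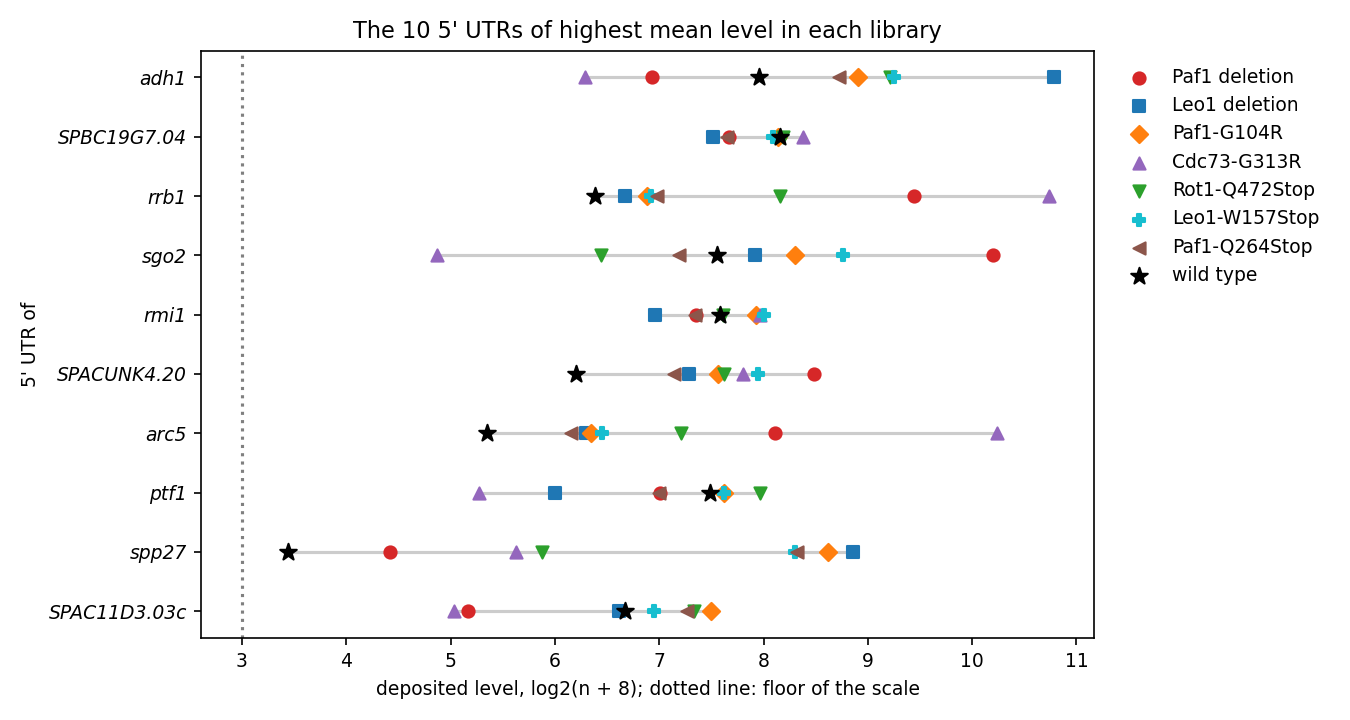
Deposited level, log2(n + 8), on the horizontal axis for the 10 5′ UTRs of highest mean level (rows), with 1 symbol per library and a black star for wild type. SPBC19G7.04 and rmi1 are the tightest rows on this scale, rrb1 and arc5 reach their highest level in Cdc73-G313R, and spp27 stands at 3.44 in wild type, below each mutant.

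A member was counted as higher or lower in a mutant if its level was at least 5 in the mutant or in wild type and the levels differed by at least 1. In Paf1 deletion 131 members were higher and 31 lower of 216, where 22.3% of all rows past the filter were higher and 19.8% lower. Of the 131, 98 held fewer than 10 reads. With at least 10 reads required, 33 were higher and 27 lower of 106, beside 14.3% and 21.8% of all such rows. In Leo1 deletion 34 were higher and 33 lower of 108 (all rows 5.08% and 29.6%), and with 10 reads 18 and 28 of 84 (3.82% and 29.7%). Of those higher, 5 of 131 in Paf1 deletion and 2 of 34 in Leo1 deletion stood at level 5 in wild type. The rest entered only through the mutant, where they are high, so the filter largely sets these counts and their share is not read against that of all rows.

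In Paf1-G104R 27 members were higher and 13 lower of 113 (all rows 4.58% and 9.79%), and with 10 reads 15 and 9 of 92 (3.74% and 9.03%). In Cdc73-G313R 11 were higher and 57 lower of 83 (3.92% and 74.9%), and with 10 reads 5 and 51 of 69 (3.34% and 75.3%). The lower count in that library moves with its median shift of -2.00. In Rot1-Q472Stop 54 were higher and 33 lower of 140 (8.37% and 26.3%), and with 10 reads 19 and 29 of 94 (6.50% and 26.4%). In Leo1-W157Stop 40 were higher and 34 lower of 123 (8.73% and 32.9%), and with 10 reads 11 and 29 of 82 (5.98% and 33.8%). In Paf1-Q264Stop 15 were higher and 19 lower of 100 (3.80% and 12.6%), and with 10 reads 5 and 14 of 78 (2.79% and 12.3%). Of those higher, 2 of 27 in Paf1-G104R, 3 of 11 in Cdc73-G313R and 4 of 54 in Rot1-Q472Stop stood at level 5 in wild type. The numbers were 5 of 40 in Leo1-W157Stop and 0 of 15 in Paf1-Q264Stop, and the rest entered only through the mutant. With 10 reads they were 2 of 15 in Paf1-G104R, 3 of 5 in Cdc73-G313R and 4 of 19 in Rot1-Q472Stop. In Leo1-W157Stop they were then 5 of 11 and in Paf1-Q264Stop 0 of 5. A lower call needs level 5 in wild type, so in each mutant only the same 74 members could be called lower. The share lower among members past the filter also depends on how many entered through the mutant. It is therefore not ranked between mutants. Higher calls in a shallow library can rest on few reads, and the counts with 10 reads show what remains without them.

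These splits depended on the scaling. Recentring subtracted the median difference from wild type over all rows past the level filter. It left 20 members higher and 15 lower in Paf1-Q264Stop, 38 and 19 in Leo1 deletion, and 52 and 24 in Leo1-W157Stop. The counts were then 26 and 9 in Cdc73-G313R and 63 and 19 in Rot1-Q472Stop. With quantile normalization the counts were 18 and 14 in Paf1-Q264Stop, 28 and 8 in Paf1-G104R, 45 and 25 in Leo1-W157Stop, 20 and 33 in Cdc73-G313R, and 59 and 19 in Rot1-Q472Stop. In Paf1 deletion the subtracted median was 0.01, so recentring could hardly move the counts, which stayed at 131 and 31. Quantile normalization gave 127 and 32 there.

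The mutants share the wild-type library, so calls in several of them are not independent. Of the 74 members at level 5 or more in wild type, 5 were lower in all 7 mutants, where 2.29% of the 2092 rows past the filter in all 7 comparisons were. No member was higher in all 7, where 0.239% of those rows were. The 5 are mae1, rsv2, SPAC22A12.14c, SPBC21.03c and usp107, of which the last pair are 5 nt long, shorter than any sequenced RNA, and rest on 1 wild-type read each.

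At mae1 the level was at the floor of 3 in Paf1 deletion and Rot1-Q472Stop, 6.58 in Paf1-G104R, 5.59 in Paf1-Q264Stop, 3.59 in Cdc73-G313R, 6.80 in Leo1 deletion and 5.58 in Leo1-W157Stop, against 10.93 with 593 reads in wild type. The mutants held 0 to 16.3 reads. With 0 reads the element was at least 41.4-fold lower in Paf1 deletion and at least 76.6-fold lower in Rot1-Q472Stop, at a floor of 3 reads per library. Multiplied by 3, the recovered numbers were 49 in Paf1-G104R, 23.7 in Paf1-Q264Stop, 1 in Cdc73-G313R, 44 in Leo1 deletion, 10 in Leo1-W157Stop and 1778 in wild type, and the 20 capital bases shown above occur at 3 places. The telomeric repeat row that holds one of them had 6 to 181 reads in the mutants and 9211 in wild type, and was lower in all 7 too. The mae1 transcript row, which contains the 5′ UTR, held 15.5 to 669 reads in the mutants and 7250 in wild type, and was lower in all 7, by -2.64 to -5.75. The mae1 3′ UTR differed from wild type by -3.61 in Cdc73-G313R and by -0.64 to 0.10 in the other 6 mutants.

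The 5′ UTR of rsv2, a zinc finger transcription factor gene, held 7 reads in Paf1 deletion, 65 in Paf1-G104R, 21 in Paf1-Q264Stop, 26 in Rot1-Q472Stop, 4 in Cdc73-G313R, 16 in Leo1 deletion and 6 in Leo1-W157Stop, against 345 in wild type. All mutant levels, 3.80 to 5.66, lay below the wild-type level of 7.20. The ratio was nearest to 1 in Paf1-G104R, at 0.308 (0.232 to 0.402), and farthest in Cdc73-G313R, at 0.0429 (0.0116 to 0.111). SPAC22A12.14c held 0 to 16 reads in the mutants and 66 in wild type. Both 5′ UTRs lie opposite a long non-coding RNA of the table, SPNCRNA.1611 at rsv2 and SPNCRNA.719 at SPAC22A12.14c.

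The 5′ UTRs of ero11 and gto1 were low in most mutants too. At ero11, which encodes an oxidoreductase of the endoplasmic reticulum, the element held 17 reads in Paf1 deletion, 108 in Paf1-G104R, 25 in Paf1-Q264Stop, 11 in Rot1-Q472Stop, 0 in Cdc73-G313R, 6 in Leo1 deletion and 5 in Leo1-W157Stop, against 321 in wild type. That of gto1, an omega-class glutathione transferase, held 0 reads in Paf1 deletion, 105 in Paf1-G104R, 25 in Paf1-Q264Stop, 8 in Rot1-Q472Stop, 4 in Cdc73-G313R, 15 in Leo1 deletion and 6 in Leo1-W157Stop, against 281 in wild type. Both were called lower in 6 mutants and differed by less than 1 in Paf1-G104R, by -0.83 at ero11 and by -0.67 at gto1. The gto1 element lies over its whole 393 nt opposite SPNCRNA.1087. Named members called lower in some of the mutants on fewer reads were syf2, a splicing factor gene, and dmc1, the meiotic recombinase gene. The syf2 element held 0 to 18 reads in the mutants and 25 in wild type. That of dmc1 held 0 to 3 reads in the mutants and 11 in wild type. At the wild-type level dmc1 would hold 2.30 reads in Paf1 deletion and 7.15 in Paf1-Q264Stop. Its ratio interval excluded 1 in Leo1 deletion (0 to 0.853) and included 1 in the other 6 mutants.

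In all, 21 members were lower in at least 5 mutants, and 17 of them held at least 10 wild-type reads. This count was not made over all rows, so it is not read as particular to 5′ UTRs. Of these 17, 8 lie opposite a non-coding RNA or repeat only, 1 opposite both kinds of row, 1 opposite a coding transcript only and 7 opposite no row. Of the 66 members at level 5 with 10 reads in wild type, 25 lie opposite a non-coding RNA or repeat only, 25 opposite a coding transcript only and 13 opposite no row. A lower call needs level 5 in wild type, so with 10 reads only these 66 could be lower. In Paf1 deletion 13 of the 25 opposite non-coding rows only were lower. So were 4 of the 25 opposite coding transcripts only and 8 of the 13 with no opposite row. In the same order the numbers were 14, 4 and 9 in Leo1 deletion and 15, 5 and 8 in Leo1-W157Stop. They were 12, 7 and 9 in Rot1-Q472Stop and 6, 2 and 5 in Paf1-Q264Stop. In Paf1-G104R they were 4, 2 and 2, and in Cdc73-G313R 21, 16 and 12. Of all rows past the filter, 21.8% were lower in Paf1 deletion, 29.7% in Leo1 deletion, 33.8% in Leo1-W157Stop and 26.4% in Rot1-Q472Stop. That share was 12.3% in Paf1-Q264Stop, 9.03% in Paf1-G104R and 75.3% in Cdc73-G313R. It also counts rows that entered through the mutant, so the members are not read against it. Among the 66 members, those opposite coding transcripts only were lower least often in each mutant. Those with no opposite row were lower at least as often as those opposite non-coding rows, except in Paf1-G104R. These groups are small.

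**Figure D4:**
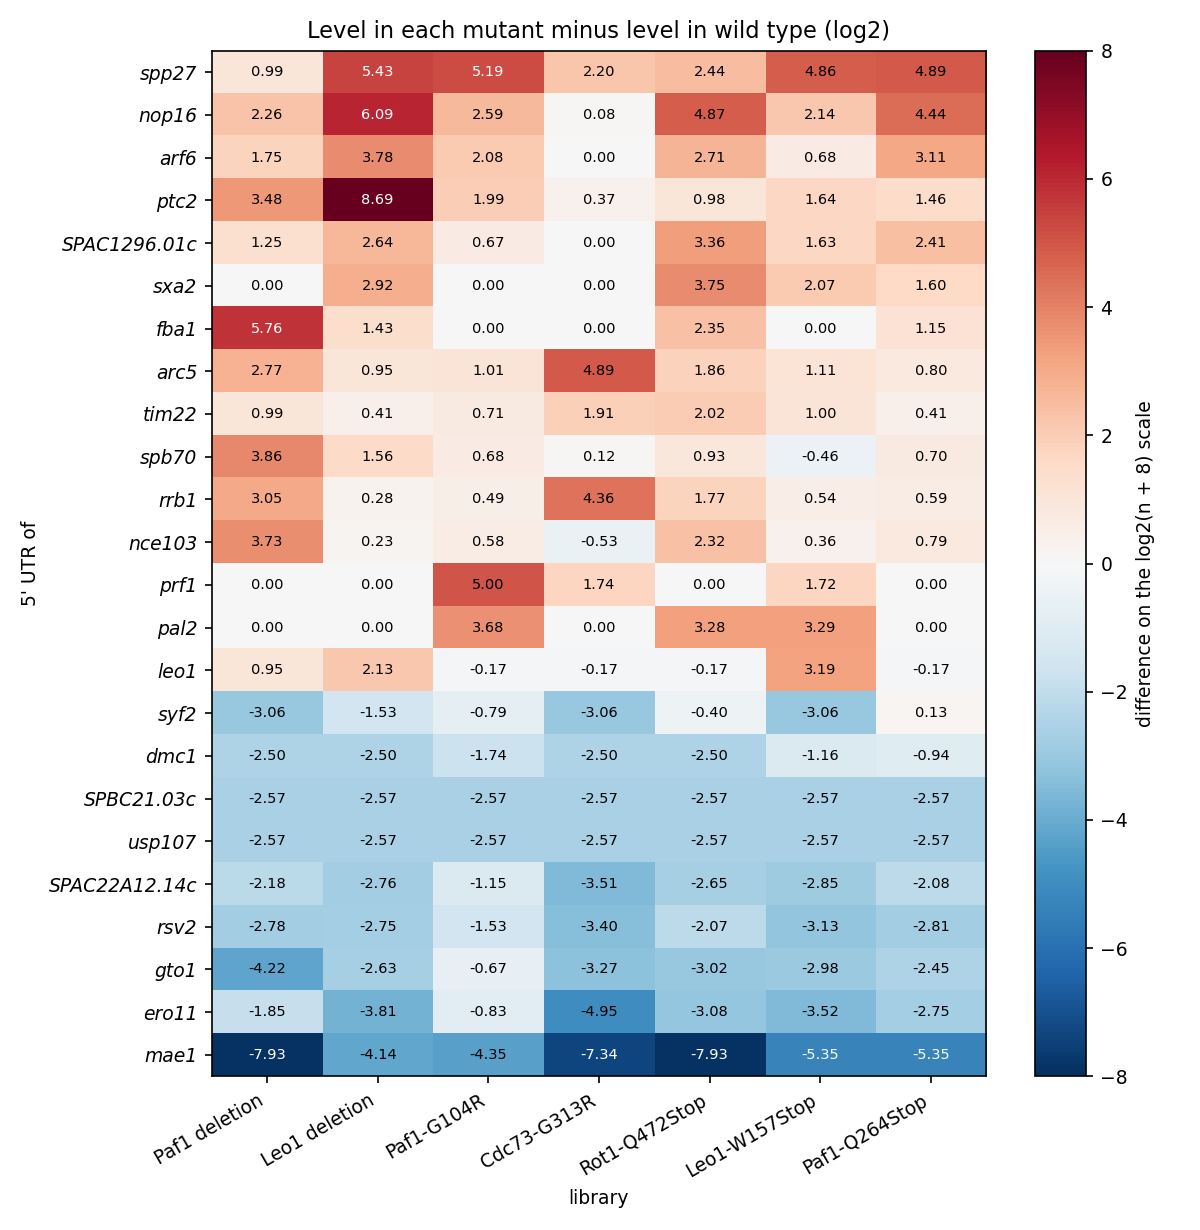
Difference in level, mutant minus wild type on the log2(n + 8) scale, for the named 5′ UTRs with the largest rises and falls (rows, ordered by median difference) in the 7 mutants (columns), with red for higher and blue for lower. The mae1 row is the darkest blue, at -4.14 to -7.93, and the rows of SPBC21.03c and usp107 rest on 1 wild-type read each.

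Few members were higher in most mutants. No member was higher in 7, 3 were higher in 6 and 5 in at least 5. Except for all 7 mutants, these counts were not made over all rows. Those in 6 were spp27, nop16 and SPACUNK4.20. The 5′ UTR of spp27, which encodes a factor of RNA polymerase I initiation, lies 6.4 kb from nmt1, a thiamine-repressed gene (chromosome 3, 1831913 to 1831982). It held 1 read in Paf1 deletion, 84 in Paf1-G104R, 72 in Paf1-Q264Stop, 7 in Rot1-Q472Stop, 4 in Cdc73-G313R, 76 in Leo1 deletion and 30 in Leo1-W157Stop, against 1 in wild type. Its level was 8.30 to 8.86 in the 4 libraries with 30 reads or more and 3.44 in wild type. Because wild type had 1 read the ratio is loosely bounded, for example 163 in Leo1 deletion with an interval of 28.3 to 6509.

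On chromosome 2 the 5′ UTR of the ribosome biogenesis gene nop16 (4380239 to 4380485) held 11 reads in Paf1 deletion, 42 in Paf1-G104R, 177 in Paf1-Q264Stop, 144 in Rot1-Q472Stop, 1 in Cdc73-G313R, 411 in Leo1 deletion and 13 in Leo1-W157Stop, against 3 in wild type. Its neighbour arf6, a small GTPase gene 4.4 kb away, held in its 5′ UTR 3 reads in Paf1 deletion, 12 in Paf1-G104R, 30 in Paf1-Q264Stop, 13 in Rot1-Q472Stop, 0 in Cdc73-G313R, 36 in Leo1 deletion and 1 in Leo1-W157Stop, against 0 in wild type. By level both were highest in Leo1 deletion, and Paf1-Q264Stop and Rot1-Q472Stop took the next places, with nop16 higher in Rot1-Q472Stop and arf6 higher in Paf1-Q264Stop. Of the other 17 members within 20 kb of nop16, 2 reached level 5 in a library: chr4 with 34 reads in Leo1 deletion, against 32 in wild type, and uap2 with 2 reads in Paf1 deletion, against 0 in wild type.

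On chromosome 3, ptc2, a protein phosphatase 2C gene, had the largest rise of all named members. Its 5′ UTR held 1138 reads in Leo1 deletion and 1 to 13 in the other 6 mutants, against 2 in wild type, and its level was 12.29 in Leo1 deletion and 3.60 in wild type. In Paf1 deletion it stood at 7.08 with 13 reads, 3.48 above wild type.

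Around ade6, nmt1 and cox4, whose own 5′ UTRs were left out, at most 3 of the 5′ UTRs in a window reached level 5 in any library. In Leo1 deletion these were 1 of the 13 members within 20 kb of ade6 (7.69%), 2 of the 12 near nmt1 (16.7%) and 2 of the 15 near cox4 (13.3%), beside 1.16% of all members. In Rot1-Q472Stop they were 0 near ade6, 2 near nmt1 (16.7%) and 3 near cox4 (20%), beside 2.10% of all members. These shares rest on few reads. In Rot1-Q472Stop the 2 near nmt1 were spp27 with 7 reads and drs1 with 3. The 3 near cox4 there include 2 pieces of the SPAC1296.01c 5′ UTR, with 50 and 4 reads. With 10 reads required, 1 member remained in each window in Leo1 deletion, and 0 near nmt1 and 2 near cox4 in Rot1-Q472Stop. In wild type none of the 3 windows had a member at level 5, beside 1.54% of all. Near ade6, the 5′ UTR of rpl3402, a ribosomal protein gene 3.3 kb away, held 0 reads in Paf1 deletion, 48 in Paf1-G104R, 13 in Paf1-Q264Stop, 8 in Rot1-Q472Stop, 1 in Cdc73-G313R, 89 in Leo1 deletion and 8 in Leo1-W157Stop, against 0 in wild type. In Leo1 deletion it stood at 7.65, with wild type at the floor of 3. Near cox4, the longer 5′ UTR piece of SPAC1296.01c, 0.9 kb away, held 4 reads in Paf1 deletion, 5 in Paf1-G104R, 39 in Paf1-Q264Stop, 50 in Rot1-Q472Stop, 0 in Cdc73-G313R, 34 in Leo1 deletion and 8 in Leo1-W157Stop, against 0 in wild type. That of sxa2, a carboxypeptidase that degrades mating pheromone, 1.7 kb away on the other side, held 11 reads in Rot1-Q472Stop and 0 to 7 in the other 6 mutants, against 0 in wild type. By level, Leo1 deletion was highest at rpl3402, nop16 and spp27, and Rot1-Q472Stop was highest on both sides of cox4. Some of these leads are small. At spp27 the level was 8.86 in Leo1 deletion and 8.62 in Paf1-G104R, and sxa2 held 7 reads in Leo1 deletion. No order of strains by place is read from them. The nop16 and cox4 windows, chr4, uap2, drs1 and the role of rpl3402 as a neighbour were chosen after their values were seen.

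**Figure D5:**
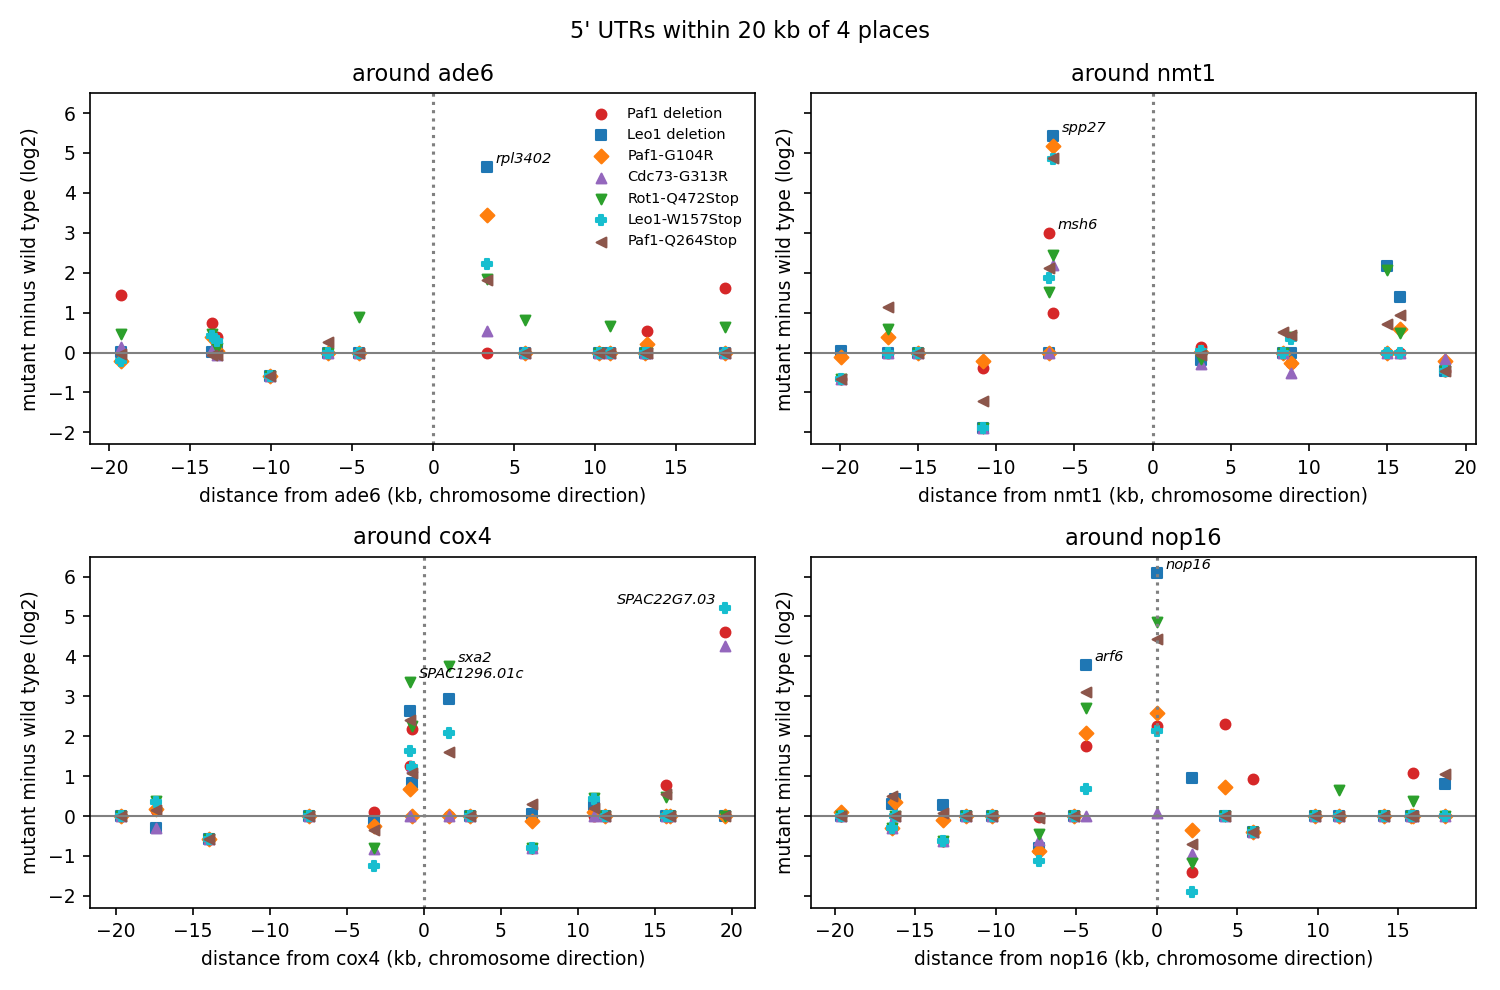
Difference in level, mutant minus wild type on the log2(n + 8) scale (vertical axis), of 5′ UTRs by distance in kb (horizontal axis) from ade6, nmt1, cox4 and nop16, with 1 symbol per mutant. At each place 1 or a few neighbours rise above the rest, spp27 beside nmt1, rpl3402 beside ade6, SPAC1296.01c and sxa2 beside cox4, and arf6 beside nop16. The points of SPAC22G7.03 at the right of the cox4 panel rest on 1 or 2 reads of a 5-nt element.

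Some rises were largest in a single library. In Paf1 deletion the 3 largest were those of fba1, the aldolase of glycolysis, with 14 reads against 0 in wild type, of spb70, a subunit of DNA polymerase alpha, with 108 reads against 19.7, and of nce103, a carbonic anhydrase gene, with 180 against 32. The ratios were 25.8 for spb70 (15.9 to 43.9) and 26.9 for nce103 (18.4 to 40.5), and fba1 was at least 22.3-fold higher. In Paf1-G104R the 5′ UTR of prf1 held 30 reads, against 0 or 1 in the other 6 mutants and 0 in wild type. Its transcript row, which contains the 5′ UTR, held 874 reads there. In Leo1-W157Stop that of leo1 held 21 reads, with 15 in Leo1 deletion, 0 to 2 in the other 5 mutants and 1 in wild type. In Rot1-Q472Stop that of cdc73 held 38 reads, against 0 or 1 in the other 6 mutants and 4.50 in wild type. Those of prf1, leo1 and cdc73 were thus high where their transcript rows were. That of paf1 held 1 read in Paf1-Q264Stop, where its transcript row held 203, and 4 in Paf1 deletion, against 0 in wild type.

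The gene lists showed few calls. Of 92 members from meiosis genes, 7 reached level 5 in wild type, which is more than the 1 of 135 from ribosomal protein genes. With 10 reads, 5 of 8 meiosis members past the filter were lower in Paf1 deletion, 2 of 7 in Paf1-G104R, 1 of 7 in Paf1-Q264Stop, 4 of 7 in Rot1-Q472Stop, 6 of 7 in Cdc73-G313R, 5 of 7 in Leo1 deletion and 5 of 8 in Leo1-W157Stop, and none was higher. Of all rows past this filter, those lower made up 21.8% in Paf1 deletion, 9.03% in Paf1-G104R, 12.3% in Paf1-Q264Stop, 26.4% in Rot1-Q472Stop, 75.3% in Cdc73-G313R, 29.7% in Leo1 deletion and 33.8% in Leo1-W157Stop. With 1 of 7 in Paf1-Q264Stop and 6 of 7 in Cdc73-G313R, the list stood near these shares in both libraries. Nearly all list members past this filter are the 7 at level 5 in wild type, so they entered where they are high. The filter thus largely sets these counts. Without the 10-read rule 1 list member was higher in Paf1 deletion, 1 in Leo1 deletion, 2 in Rot1-Q472Stop and 2 in Leo1-W157Stop. The median difference over all 92 was 0.00 in each mutant, as over all 4807 members. The list consists mostly of genes named for rising in meiosis, such as mug2, mug30 and mug58, and includes dmc1. Of these mug2 was called lower in 6 mutants and mug30 and mug58 in 2 each, while mug108 was in none.

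Of the 17 members from glycolysis and fermentation genes, 3 were higher and 1 lower in Paf1 deletion of 4 past the filter, and 2 were higher of 2 in Leo1 deletion. In Paf1 deletion the higher ones were fba1, the enolase gene eno101 with 24 reads (8.22, 3.53 above wild type) and the phosphoglycerate kinase gene pgk1 with 6 reads, and the lower one was adh1. In Leo1 deletion they were adh1 and eno101, the second with 9 reads. Of all members past the filter 60.6% were higher in Paf1 deletion and 31.5% in Leo1 deletion, and of all rows 22.3% and 5.08%. Those lower in Paf1 deletion were 14.4% of members and 19.8% of all rows. The list counts are too small to be set against these shares. Of the 135 ribosomal protein members, 10 were higher of 11 in Paf1 deletion, where 60.6% of all members and 22.3% of all rows past the level filter were, and none of these held 10 reads. Of the 20 members from RNA interference and heterochromatin genes, the Argonaute gene ago1 was higher in Paf1 deletion, on 1 read, and none was called in the other 6 mutants. The one at level 5 in wild type was arb1, an Argonaute partner, with a median difference of -0.35. In the chaperone, stress response and phosphate, iron and thiamine lists no member was called in any mutant, and in the histone list the H4 gene hhf2 was higher in Paf1 deletion on 6 reads and the H2B gene htb1 in Rot1-Q472Stop on 5. In the translation elongation list tef102 was higher in Paf1 deletion and in Leo1-W157Stop on 3 reads each, and tef103 in Rot1-Q472Stop on 4.

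Near the pericentromeric repeats the numbers were small. Of the 41 members within 20 kb of a pericentromeric repeat row, 3 (7.32%) reached level 5 in each of Paf1 deletion, Leo1-W157Stop and Leo1 deletion, beside 3.54%, 1.62% and 1.16% of all members there, 1 (2.44%) in each of Paf1-Q264Stop and Paf1-G104R and 0 in Rot1-Q472Stop and Cdc73-G313R, against 0 in wild type. The one with 10 reads that was called was gua2, a GMP synthase gene, with 21 reads in Paf1-G104R, 0 in Cdc73-G313R, 6 in Leo1 deletion, 5 in Paf1 deletion and 2 in each of the other 3 mutants, against 1 in wild type. It was named after its values were seen. Of all members 566 (11.8%) share a 20-nt stretch with another place in the genome, and 17 of these reached level 5 in wild type. The 40 that share one with telomeric rows include mae1, ghs2 at 5.08 and SPAC343.21 at 5.10 in wild type, and the other 37 stayed below 5 there.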

How the data were processed

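Small RNA of 18 to 28 nt from 8 strains was sequenced, 1 library per strain. CASAVA 1.8 and Bowtie 0.9.9.1 are listed in the submitters' processing notes, while build, annotation and counting rules were not given in the sources used here. Deposited by the authors were log2 values for 17962 rows, with a floor of 3 and the same linear total of 907489 in each library. The values behave as log2(n + 8), n being reads divided by row length and scaled. The value of 1 read was found per library by least squares on low multiples, which gave the read numbers (fractional where reads have several places). No count model was used. Ratios use rounded reads, the lengths and the library scale, with exact 95% Clopper-Pearson intervals.

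Members and gene lists were chosen with earlier results of these data known. Groups were taken from the labels. A row entered a comparison at level 5 in the higher library and was called at a difference of 1, with 10 reads as an alternative, and the calling rule was tested on simulated data. Opposite-strand rows are those sharing at least 1 nt. Symbols came from RefSeq (4796 of 4807 members matched). Named are the 10 members of highest mean level, those higher or lower in all 7 mutants, the 3 largest rises and falls per mutant with 10 reads, and up to 4 members of highest mean level per list. Members named outside this rule, because a count was small or a place was described, were chosen after their values were seen. The alternatives were other scalings, filters, pseudocounts, overlaps and thresholds. Python 3.11.15, numpy 2.4.6, pandas 2.3.3, scipy 1.17.1 and matplotlib 3.10.9 were used.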

Additional observations from a re-analysis of the deposited data

How the results depend on the processing

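No paired analysis was possible because each strain has 1 library. As a share of all 4807 members, those called higher with no filter on level were 9.03% in Paf1 deletion, 1.21% in Paf1-G104R, 1.25% in Paf1-Q264Stop, 3.54% in Rot1-Q472Stop, 0.978% in Cdc73-G313R, 2.16% in Leo1 deletion and 2.81% in Leo1-W157Stop. Those lower were then 2.25% in Paf1 deletion, 1.02% in Paf1-G104R, 1.19% in Paf1-Q264Stop, 1.96% in Rot1-Q472Stop, 4.37% in Cdc73-G313R, 2.06% in Leo1 deletion and 2.45% in Leo1-W157Stop. With at least 10 reads in the higher library, those higher were 0.686% in Paf1 deletion, 0.312% in Paf1-G104R, 0.104% in Paf1-Q264Stop, 0.395% in Rot1-Q472Stop, 0.104% in Cdc73-G313R, 0.374% in Leo1 deletion and 0.229% in Leo1-W157Stop, while those lower stayed within 1.5 times. Recentring left 0.395% lower in Leo1 deletion, 0.395% in Rot1-Q472Stop, and 0.541% higher and 0.187% lower in Cdc73-G313R. Quantile normalization gave 0.166% lower in Paf1-G104R, 0.395% in Rot1-Q472Stop, and 0.416% higher and 0.686% lower in Cdc73-G313R. A pseudocount of 1 gave 0.437% lower in Paf1-G104R. Leaving out members under 18 nt, an alternative chosen after seeing the data, moved none of the 14 shares beyond 1.5 times. At threshold 4 in place of 5, members numbered 814 in Paf1 deletion, 369 in Paf1-G104R, 359 in Paf1-Q264Stop, 477 in Rot1-Q472Stop, 160 in Cdc73-G313R, 315 in Leo1 deletion, 417 in Leo1-W157Stop and 354 in wild type. At threshold 6 they numbered 41 in Paf1 deletion, 28 in Paf1-G104R, 18 in Paf1-Q264Stop, 21 in Rot1-Q472Stop, 11 in Cdc73-G313R, 22 in Leo1 deletion, 21 in Leo1-W157Stop and 24 in wild type. With 50 nt and 10 reads required, the median difference from the own transcript was -1.57 in Paf1 deletion and within 0.1 of the reported value in the other 7 libraries. An opposite overlap of 40 nt left all 16 shares within their intervals. In Cdc73-G313R, adh1 and SPAC11D3.03c changed sign on recentring (0.33 and 0.37), and SPAC11D3.03c on quantile normalization (0.06). These shifts follow from the scaling of that library. The cause of the other changes was not tested. Depth limits most members to a few reads, and counting error is the only error that could be given for a single difference.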
